A study of Mus musculus with 26 samples.

Results

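Lipoproteins carry triglyceride and cholesterol in particles wrapped by apolipoproteins, and 10 mouse genes of this system are described here in the colon: *Apob*, *Mttp*, *Apoa1*, *Apoa4*, *Apoe*, *Apoc1*, *Apoc2*, *Lpl*, *Pltp* and *Apod*. They were chosen by name, for what their products do, but with earlier results of these data known. Counts of calls among them are therefore not independent of these data. They make up 10 of the 35975 genes to which the counts were summed. Bulk RNA-seq of polyA RNA was analysed for 26 colon samples from mice on a standard diet or on the same food with GW3965, a synthetic agonist of the nuclear receptor LXR. At days 22, 43 and 70 the mice had received the carcinogen azoxymethane (AOM) and dextran sodium sulfate (DSS), which injures the colonic epithelium. DSS was given in 3 cycles over the whole course, so the number of cycles received rose with the day. Each diet had 3 samples at each of these days. The day 0 groups had 4 samples per diet from mice that had eaten the diet for 22 or 43 days and received neither AOM nor DSS. Per the paper, the RNA came from distal colon where tumours form. It reports no macroscopic tumours at day 22 and, at day 43, tumours almost only on the standard diet. At day 70 both diets had tumours, but not to the same extent. Diet and tumour growth therefore cannot be told apart at days 43 and 70, nor can tumour growth and the change from day 0. All mice were wild-type C57BL/6J males from Taconic with a starting age of about 10 weeks, the AOM dose was 10 mg per kg, and the GW3965 diet began on the day of AOM. The study's reporting summary describes pooled animals as single RNA-seq samples, whereas a figure legend counts mice per timepoint, so it is unclear whether a sample is 1 mouse or a pool.

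Total counts per sample lay between 18195345 and 41522204, and 9 of the 10 genes passed the filter on low counts. Per the labels, the samples of a diet shared 1 cage at day 0 and another at days 22 and 43, so diet and cage cannot be told apart there, whereas every day 70 sample had its own cage. No cage held both day 0 and later samples, so a change from day 0 cannot be told apart from a difference between cages. Several samples stood apart. Standard diet day 43 replicate 1 had an RNA integrity number of 2.6 and the highest total count. The day 43 samples had 10.0% to 18.6% of their counts on ribosomal protein genes and all other samples had 3.96% to 10.7%. GW3965 day 70 replicate 1 had a summed level of 20331 CPM over 10 skeletal muscle markers, where no other sample exceeded 692 CPM. GW3965 day 70 replicate 2 had 4.015 CPM over 5 keratinocyte genes of stratified epithelium, where the other 5 samples of day 70 had 2930 to 13620 CPM. One day 0 sample is titled GW3965 and labelled with the standard diet, and it was grouped by its title. All 12 colonic epithelium markers were detected in every sample. The 12 small intestinal enterocyte markers summed to 88.8 to 277.3 CPM. Of these, 6 were detected in every sample at over 1 CPM, such as *Slc5a1* with up to 187.8 CPM and *Fabp6* with up to 68.2 CPM. In contrast, *Lct*, *Sis*, *Apoc3* and *Slc2a2* did not exceed 0.964 CPM in any sample.

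In the gut, enterocytes of the small intestine load triglyceride onto apolipoprotein B with the help of microsomal triglyceride transfer protein and secrete it as chylomicrons. In the circulation, lipoprotein lipase hydrolyses the triglyceride, apolipoprotein C-II activates that lipase and apolipoprotein C-I restrains it, and phospholipid transfer protein moves phospholipid between particles. Apolipoprotein E is the ligand by which remnants are taken up and is also made by macrophages, where LXR induces it together with *Apoc1*, *Apoc2* and *Pltp*. Apolipoprotein D is a lipocalin, unrelated in sequence family to the others, that binds small lipids.

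Levels of the 10 genes were compared with each other only as TPM, a share of all transcripts that corrects for transcript length. *Apoe* (ENSMUSG00000002985.16, chromosome 7, 19696109 to 19699188 in GRCm38, minus strand) was by far the most abundant, with a median of 1194 TPM over the 26 samples and a range of 263 to 2605 TPM. *Apod* (ENSMUSG00000022548.14, chromosome 16, 31296192 to 31314808) followed at a median of 36.2 TPM, *Pltp* (ENSMUSG00000017754.13, chromosome 2, 164839518 to 164857711) at 31.8 TPM, *Apoc2* (ENSMUSG00000002992.17, chromosome 7, 19671579 to 19677941) at 21.3 TPM and *Apoc1* (ENSMUSG00000040564.14, chromosome 7, 19689481 to 19692660) at 16.1 TPM. *Apoe*, *Apoc1* and *Apoc2* are neighbours on the same strand. *Lpl* (ENSMUSG00000015568.16, chromosome 8, 68880491 to 68907448) had a median of 4.85 TPM, *Apob* (ENSMUSG00000020609.14, chromosome 12, 7977648 to 8016835) 2.19 TPM and *Mttp* (ENSMUSG00000028158.14, chromosome 3, 138089854 to 138144968) 1.23 TPM. *Apoa1* (ENSMUSG00000032083.8, chromosome 9, 46228580 to 46230466) and *Apoa4* (ENSMUSG00000032080.6, chromosome 9, 46240696 to 46243459), the exchangeable apolipoproteins of intestinal and hepatic particles, were close to the limit of detection, with medians of 0.0656 and 0.0646 TPM. *Apoa1* had 45 counts in all 26 samples together and none in 11 of them. All 10 genes are annotated as protein coding.

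**Figure D1:**
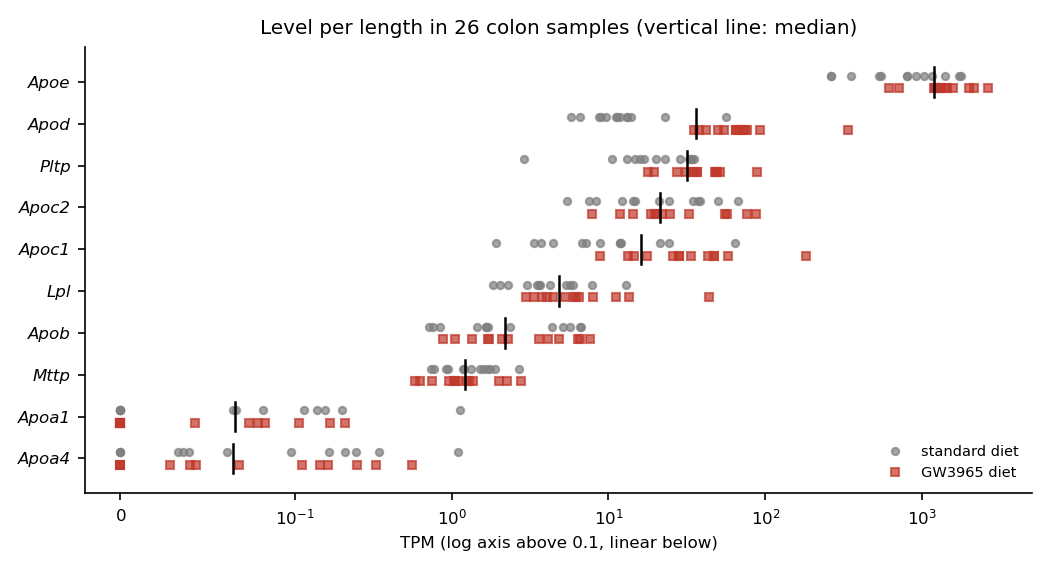
Level of the 10 genes in TPM (horizontal axis, logarithmic above 0.1) in each of the 26 samples, with standard diet samples as grey circles, GW3965 samples as red squares and the median as a vertical line. *Apoe* lay at a median of 1194 TPM, more than that of any other of the genes, and *Apoa1* and *Apoa4* lay near 0.

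The transcripts behind these sums differed in kind. For *Apoe*, the coding transcript ENSMUST00000174355.7 held 75.5% of the counts, for *Lpl* ENSMUST00000015712.14 held 96.0%, and for *Pltp* ENSMUST00000059954.13 held 91.7%. For *Apod* the leading transcript, ENSMUST00000023207.14 with 42.6%, is annotated as a retained intron, and the coding transcripts ENSMUST00000130560.7 and ENSMUST00000115230.1 held 30.1% and 26.9%. *Pltp* overlaps *Ctsa*, and *Mttp* overlaps *Trmt10a*, on the opposite strand, and *Apoc2* overlaps *Gm44805* on the same strand. The strand setting of the quantification was not given in the sources used here, so the split of reads within these pairs is uncertain.

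The region around the start of each gene was taken from RefSeq (GRCm38.p6, 250 bases before to 50 bases after the start), where 8 of the 10 genes had an entry, all but *Apoc1* and *Lpl*, and *Apoe* had 3 starts, of which the most upstream is printed. LXR binds with RXR to direct repeats of a half-site, so the windows were searched on both strands for the half-site AGGTCA and its variants, namely AGTTCA as well as GGGTCA. The sequences of *Apod*, *Apoe* and *Pltp* are shown because these genes moved together across the samples, and that of *Apoc2* because its level changed with the day. Each is printed in the direction of transcription and in lower case, with the half-site letters in capitals.
Apod, chr16:31314759-31315058, minus strand: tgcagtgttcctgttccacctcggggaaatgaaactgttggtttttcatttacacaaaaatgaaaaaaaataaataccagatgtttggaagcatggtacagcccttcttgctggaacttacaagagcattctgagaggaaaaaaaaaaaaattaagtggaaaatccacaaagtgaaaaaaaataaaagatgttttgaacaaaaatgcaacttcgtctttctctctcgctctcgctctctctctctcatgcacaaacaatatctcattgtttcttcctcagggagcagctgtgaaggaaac
Apoe, chr7:19699139-19699438, minus strand: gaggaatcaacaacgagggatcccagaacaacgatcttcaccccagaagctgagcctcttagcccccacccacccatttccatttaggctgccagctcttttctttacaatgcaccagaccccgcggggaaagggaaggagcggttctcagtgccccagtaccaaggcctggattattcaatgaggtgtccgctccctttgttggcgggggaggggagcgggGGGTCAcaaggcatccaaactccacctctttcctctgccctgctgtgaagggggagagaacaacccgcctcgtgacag
Pltp, chr2:164857659-164857958, minus strand: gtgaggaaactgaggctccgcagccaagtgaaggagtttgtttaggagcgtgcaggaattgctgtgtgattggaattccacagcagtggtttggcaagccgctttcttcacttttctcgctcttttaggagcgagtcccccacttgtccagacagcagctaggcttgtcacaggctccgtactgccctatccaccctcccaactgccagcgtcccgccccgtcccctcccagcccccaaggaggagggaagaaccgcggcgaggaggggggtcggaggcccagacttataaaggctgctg
Apoc2, chr7:19677892-19678191, minus strand: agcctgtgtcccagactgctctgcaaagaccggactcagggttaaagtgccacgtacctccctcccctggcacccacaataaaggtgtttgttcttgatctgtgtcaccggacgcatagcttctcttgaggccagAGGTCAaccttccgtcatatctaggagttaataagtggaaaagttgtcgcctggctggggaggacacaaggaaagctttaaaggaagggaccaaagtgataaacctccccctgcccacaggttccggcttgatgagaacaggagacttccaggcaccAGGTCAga
The window of *Apoe* held 1 match, GGGTCA at positions -28 to -23 from the start. That of *Apoc2* held 2 matches of AGGTCA, at -115 to -110 and at 43 to 48, and those of *Apod* and *Pltp* held none of these letters. Any of the 3 half-sites was present in 37.5% of the 32851 windows of all genes and AGGTCA in 16.3%. A pair of half-sites with a gap of 4 bases, which contains the half-site motif itself, was present in 0.0639% of all windows and in none of the windows of these 8 genes. *Apod* had the lowest GC content among the printed windows, 37.3%, against 57.7% for *Apoe*, 59.0% for *Pltp* and 52.7% for *Apoc2*.

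The first question was whether the GW3965 diet changed these genes at any day. The call for each gene came from edgeR's quasi-likelihood test in a model of the 8 groups and the ribosomal percentage, with Benjamini-Hochberg adjustment over the 17063 genes tested and a threshold of 0.05. In the joint test of the 4 diet effects, *Apod* was the only one of the 9 genes tested that was called (edgeR, adjusted P = 0.006), where 0.176% of all genes tested were called, and 5 of the 9 had an unadjusted P below 0.05 (13.5% of all genes). DESeq2 called 5 of the 9 in its joint test, *Apoe*, *Apoc1*, *Apod*, *Lpl* and *Pltp*, among 845 genes in all against 30 with edgeR. A likelihood ratio test in a model of diet, time and the ribosomal percentage with all interactions called 0 of the 9 and 159 genes in all. That model has the form of the study's, but the study names the percentage of ribosomal RNA, which the share of counts from ribosomal protein genes stood in for here. By day, the quasi-likelihood test called 0 of the 9 at days 0, 22 and 43 and 3 at day 70, all of them higher on the GW3965 diet. Of all genes tested, 0.0293% were called at day 0, 0.135% at day 22, 0.0293% at day 43, and 1.83% (1.75% higher) at day 70. An unadjusted P below 0.05 was reached by 2 of the 9 on day 0 (1.94% of all genes), 2 on day 22 (9.96%), 2 on day 43 (8.65%) and 6 on day 70 (18.8%). DESeq2 called 1 of the 9 at day 0 (*Apod*; 27 genes in all), 0 at day 22 (295 genes in all), 0 at day 43 (68 genes) and 4 at day 70 (1162 genes), where edgeR called 5, 23, 5 and 312 genes in all. In the order of the days, the 9 genes had median log2 fold changes of 0.10, 0.42, 0.34 and 1.92, while that of all genes tested lay between -0.03 and 0.02.

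**Figure D2:**
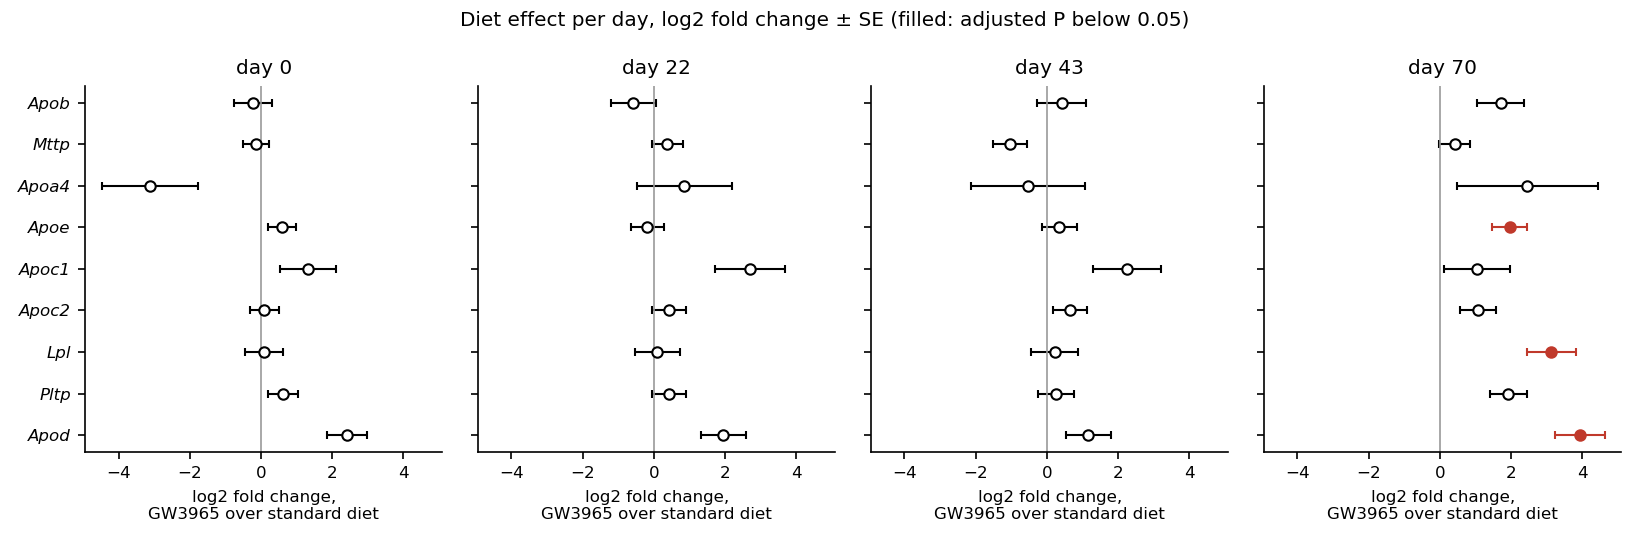
Log2 fold change of the GW3965 diet over the standard diet (horizontal axis) for the 9 genes tested, 1 panel per day, with bars of 1 standard error and filled red points for adjusted P below 0.05. At day 70 all 9 points lay above 0 and *Apoe*, *Lpl* and *Apod* were called, whereas at days 0, 22 and 43 no point was called.

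*Apod* was higher on the GW3965 diet in every sample at every day. At day 0 the standard diet samples had 6.88, 11.5, 8.00 and 4.90 CPM (counts scaled to the library size, with TMM normalization) and the GW3965 samples 27.8, 28.0, 52.7 and 56.0 CPM. At day 22 the standard samples had 10.9, 21.8 and 11.5 CPM and the GW3965 samples 66.9, 51.3 and 49.5 CPM. The diets did not overlap at either day, and the lowest GW3965 sample stood above the highest standard sample by more than the whole range of the standard samples. At day 43 the standard samples had 11.8, 81.4 and 21.6 CPM and the GW3965 samples 92.1, 90.0 and 96.6 CPM. The wide spread here was on the standard diet, where replicate 2 nearly reached the GW3965 samples. At day 70 the standard samples had 4.42, 9.01 and 6.85 CPM, and the GW3965 samples had 246.3, 46.6 and 47.6 CPM, with replicate 1 far above the other two. The log2 fold changes of days 0, 22 and 43 were 2.42 ± 0.56 (SE; edgeR, adjusted P = 0.449), 1.95 ± 0.63 (adjusted P = 0.241) and 1.16 ± 0.63 (adjusted P = 0.614). That of day 70 was 3.93 ± 0.70 (edgeR, adjusted P = 0.0182). Of all genes tested, 1.3% had every GW3965 sample above every standard sample on day 0, and the shares for days 22, 43 and 70 were 12.1%, 6.73% and 10.5%. An exact permutation test of the day 0 values of *Apod* gave P = 0.02857, the smallest that 4 against 4 samples allow. Groups without overlap always give that value, so the test adds nothing to the separation described above. In either direction, 2.29% of all genes tested had day 0 groups without overlap. The samples of a diet shared 1 cage at day 0, so the test cannot tell diet from cage. At days 22, 43 and 70 the exact permutation test of *Apod* was at its smallest value as well. DESeq2 called the day 0 difference at an adjusted P of 0.00291, and the day 43 log2 fold change was 0.78 without standard replicate 1, the sample of low RNA integrity (edgeR, adjusted P = 0.804), and 2.67 without standard replicate 2 (adjusted P = 0.0601). Without the day 0 sample of conflicting diet label it was 2.24 at day 0 (edgeR, adjusted P = 1), and *Apod* was still called in the joint test. The day 70 call of *Apod* was lost without standard replicate 1 (log2 fold change 3.64; edgeR, adjusted P = 0.131) and without standard replicate 3 (3.97, adjusted P = 0.109), and 6 and 7 genes were called in all there. It was also lost with only the day 70 samples and with same-numbered samples of a day taken as pairs (0 and 8 genes in all). The joint call of *Apod* was lost with these pairs (8 genes in all) and in the model with all interactions (159 genes).

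The difference in *Apod* was not that of 1 transcript. The retained-intron transcript had 11.6 to 24.2 CPM on the GW3965 diet and 1.75 to 5.198 CPM on the standard diet at day 0. The coding transcript ENSMUST00000130560.7 had 8.09 to 17.5 CPM and 1.25 to 3.30 CPM, and ENSMUST00000115230.1 had 7.42 to 15.1 CPM and 0.729 to 2.98 CPM. In 11 of the 12 combinations of 3 transcripts and 4 days every GW3965 sample lay above every standard sample, and the exception was ENSMUST00000115230.1 at day 43. Over the 26 samples, the 3 genes whose log2 CPM was most like that of *Apod*, of 17062 compared, were *Abca1* (Pearson's r = 0.827), which exports cellular cholesterol to lipoproteins, *Apoe* (0.781) and *Abcg1* (0.776), a second cholesterol exporter. These samples share 8 groups, and the coefficients include the differences between them.

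At day 70 *Apoe* was higher on the GW3965 diet than on the standard diet. *Pltp* also had higher values in every GW3965 sample but narrowly missed the threshold. *Apoe* had 154, 500 and 217 CPM in the standard diet samples and 1534, 1125 and 798 CPM in the GW3965 samples. *Pltp* had 16.1, 20.3 and 12.9 CPM in the standard samples and 107.8, 59.3 and 43.1 CPM in the GW3965 samples. For both genes replicate 1 was the highest and replicate 3 the lowest of the GW3965 samples, and all standard samples lay lower. The log2 fold change of *Apoe* was 1.96 ± 0.50 (SE; edgeR, adjusted P = 0.0477) and that of *Pltp* 1.92 ± 0.52 (adjusted P = 0.058). DESeq2 called both, with adjusted P of 0.00263 and 0.00674, and without GW3965 replicate 1 neither was called by edgeR (log2 fold changes 1.71 and 1.52, adjusted P of 0.146 and 0.221). The *Apoe* call was also lost without standard replicate 1 (log2 fold change 1.60; edgeR, adjusted P = 0.244), without standard replicate 3 (1.80, adjusted P = 0.162) and without the filter on low counts (adjusted P = 0.0665). The same held with only the day 70 samples and with same-numbered samples of a day taken as pairs.

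At the earlier days *Apoe* and *Pltp* overlapped between the diets. At day 0 *Apoe* had 340, 545, 572 and 322 CPM on the standard diet and 481, 745, 747 and 707 CPM on the GW3965 diet, with only GW3965 replicate 1 inside the standard range (log2 fold change 0.60 ± 0.40; edgeR, adjusted P = 1). At day 22 it had 876, 1157 and 1240 CPM against 1088, 1087 and 684 CPM, and the sign was the opposite (-0.19 ± 0.46; edgeR, adjusted P = 0.962). At day 43 it had 404, 2337 and 1642 CPM against 1897, 1973 and 1872 CPM (0.34 ± 0.49; edgeR, adjusted P = 0.883). The low value is that of the sample with the RNA integrity number of 2.6, and without it the log2 fold change of *Apoe* was -0.07 and that of *Pltp* -0.22, with adjusted P of 0.984 and 0.936 (edgeR). *Pltp* had log2 fold changes of 0.63, 0.42 and 0.25 on days 0, 22 and 43, with all adjusted P of 0.862 or more (edgeR).

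**Figure D3:**
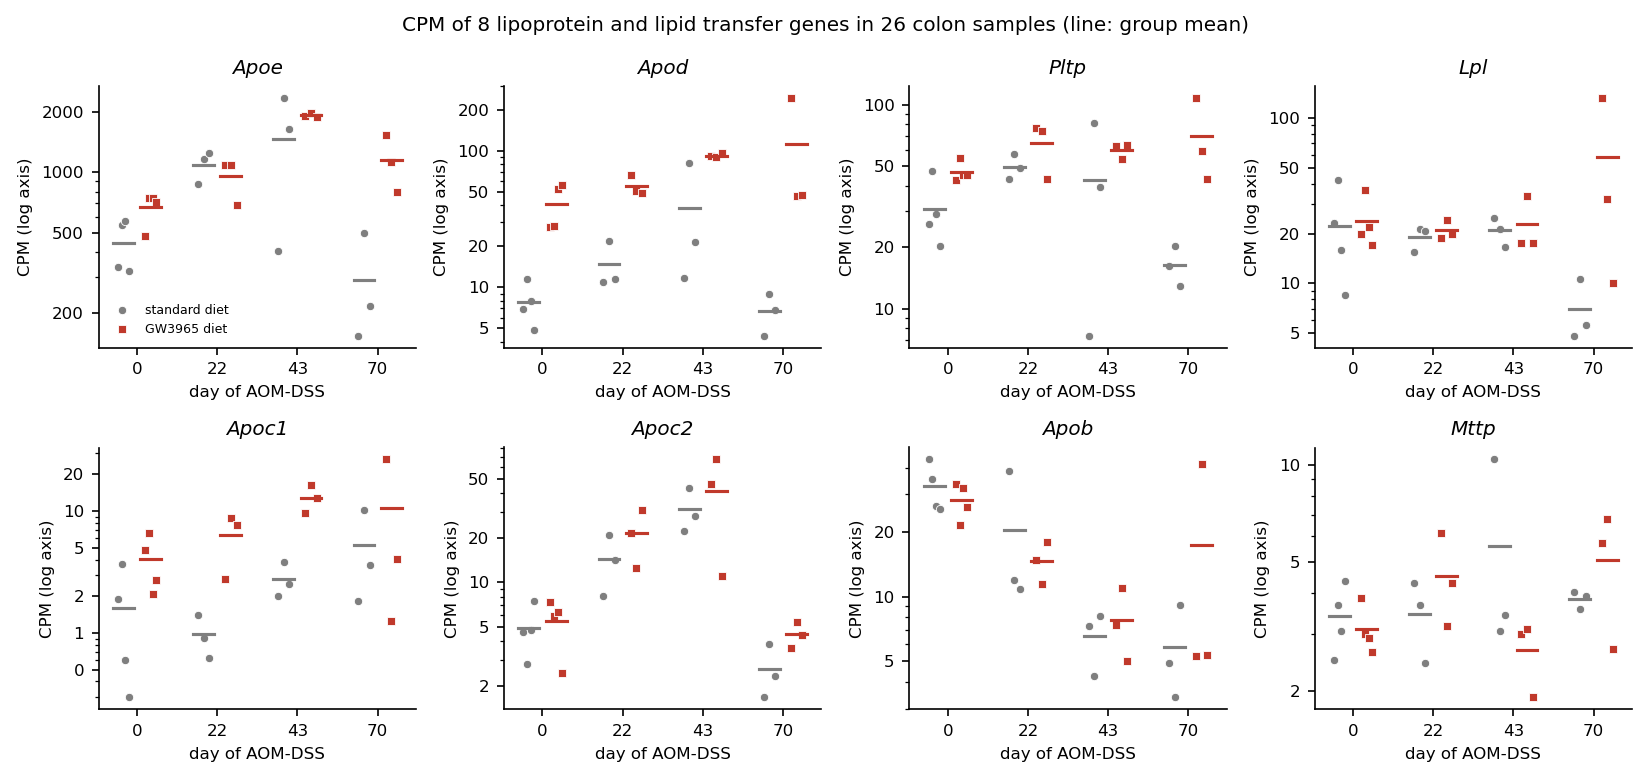
CPM (logarithmic vertical axes) of 8 of the genes against the day of AOM-DSS, with standard diet samples as grey circles, GW3965 samples as red squares and group means as lines. *Apod* was separated by diet at every day, *Apoe* and *Pltp* at day 70, and *Apoc2* was highest at days 22 and 43 on both diets.

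*Lpl* was the third gene called at day 70, and here the diets overlapped. The standard samples had 4.84, 10.7 and 5.58 CPM and the GW3965 samples 131.9, 32.2 and 10.1 CPM, so that GW3965 replicate 3 lay inside the standard range. The log2 fold change was 3.13 ± 0.70 (SE; edgeR, adjusted P = 0.0313). Without GW3965 replicate 1 it was 1.69 (adjusted P = 0.18), and without replicates 1 and 2 it was 0.58 (edgeR, adjusted P = 1), where the lone sample is assumed to vary like the other groups. Leaving out standard replicate 1, 2 or 3 also ended the *Lpl* call, with log2 fold changes of 2.92, 3.55 and 3.00 and adjusted P of 0.195, 0.0573 and 0.13 (edgeR). It was lost as well without the day 43 samples (2.95, adjusted P = 0.0758), with only the day 70 samples (3.08, adjusted P = 0.409) and with the replicate block of pairs within a day (2.40, adjusted P = 0.181). At days 0, 22 and 43 the log2 fold changes of *Lpl* were 0.09, 0.10 and 0.22, with standard errors of 0.54 to 0.66.

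The sums of cell type markers also varied among the day 70 samples. In the order of replicates 1, 2 and 3, the skeletal muscle sum was 20331, 14.7 and 27.0 CPM on the GW3965 diet and 10.9, 692 and 147 CPM on the standard diet, and all 10 markers were higher on the GW3965 diet with none called. The adipocyte sum of 10 markers was 381, 151 and 132 CPM on the GW3965 diet and 126 to 133 CPM on the standard diet, with 9 of 10 higher and none called. The macrophage sum of 12 markers was 863, 1151 and 642 CPM against 277, 688 and 364 CPM, with 12 of 12 higher and none called. The enteric glia sum of 8 markers was 70.5, 13.1 and 53.1 CPM against 11.5 to 13.6 CPM, with 8 of 8 higher and 2 called, and the fibroblast sum of 10 markers was 2173 to 4488 CPM against 1590 to 2955 CPM, with 8 of 10 higher and none called. Of the 10 adipocyte markers, 5 were at 0 in at least 1 of the 26 samples (*Adipoq* in 5 and *Lep* in 13), and 5 were detected in all, such as *Fabp4* at 5.52 to 136.6 CPM. Of the 10 skeletal muscle markers, 4 were at 0 in at least 1 sample (*Myh4* in 19), and 6 were detected in all, such as *Acta1* and *Ckm*. GW3965 replicate 1 had the highest *Apod*, *Lpl*, *Apoe* and *Pltp* of day 70. It also had the highest skeletal muscle, adipocyte, enteric glia and fibroblast sums of that day and the lowest colonic epithelium sum. The latter was 2268 CPM, where the other day 70 samples had 5843 to 13693 CPM. Of the 12 colonic epithelium markers, 4 were higher and 8 lower on the GW3965 diet at day 70, with none called. The part of these cells in the differences was not tested. In bulk samples, fewer cells of a type and less RNA per cell cannot be told apart. Without GW3965 replicate 1, *Apod* had a log2 fold change of 2.74 (edgeR, adjusted P = 0.0344).

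**Figure D4:**
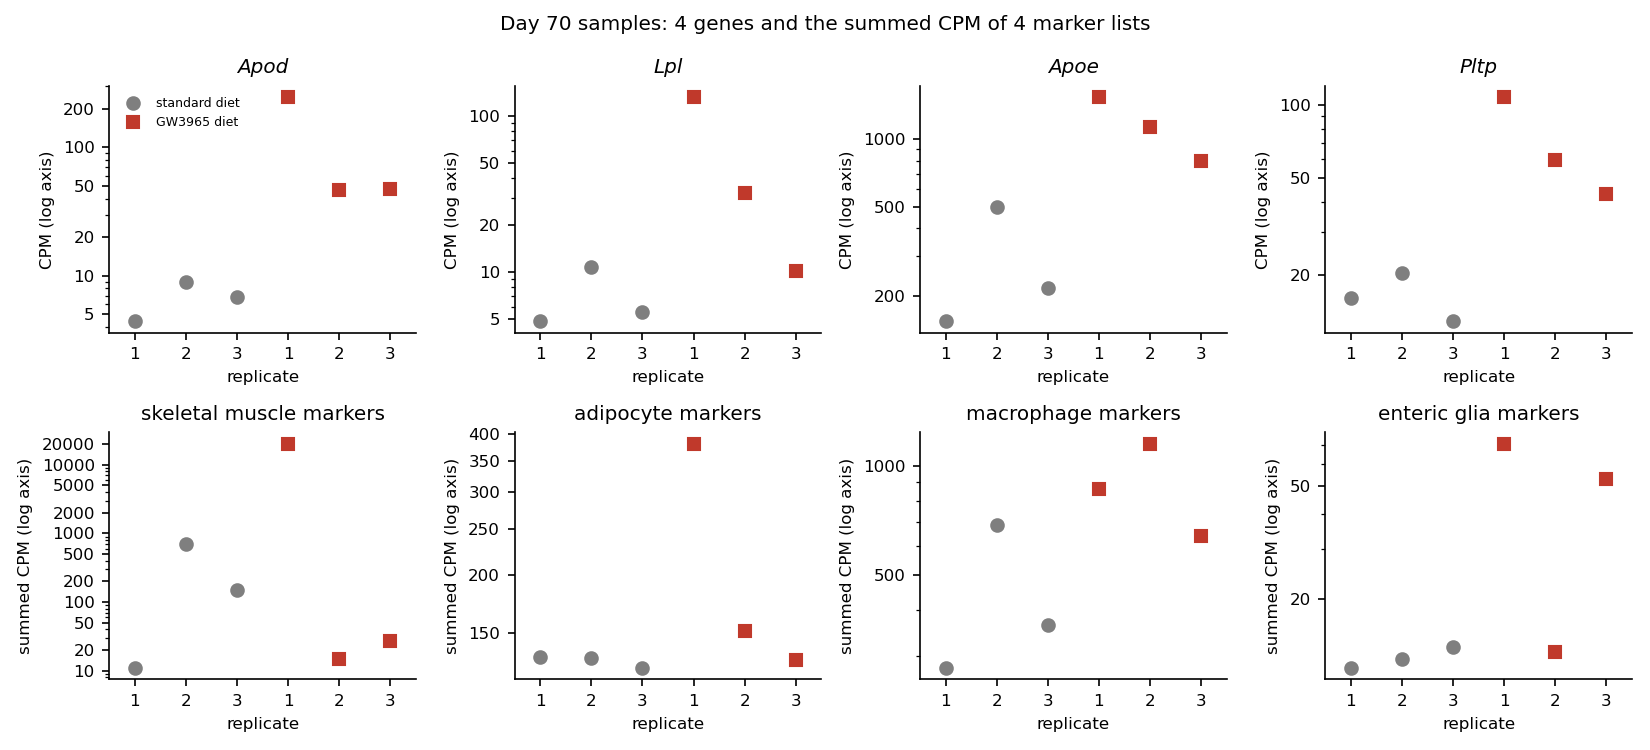
CPM of *Apod*, *Lpl*, *Apoe* and *Pltp* (upper row) and summed CPM of 4 marker lists (lower row) in the 6 day 70 samples, on logarithmic axes, by replicate, with grey circles for the standard diet and red squares for the GW3965 diet. GW3965 replicate 1 was highest for all 4 genes and had a skeletal muscle sum of 20331 CPM.

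Neither of the small apolipoproteins of chromosome 7 was called for diet at any day by edgeR's quasi-likelihood test. *Apoc1*, the lipase inhibitor, had 1.40, 0.917 and 0.62 CPM at day 22 on the standard diet and 2.78, 8.74 and 7.70 CPM on the GW3965 diet. At day 43 it had 2.02, 3.801 and 2.52 CPM against 9.64, 16.2 and 12.9 CPM. The diets did not overlap at either day, and the log2 fold changes were 2.69 ± 0.97 (SE; edgeR, adjusted P = 0.315) and 2.24 ± 0.96 (adjusted P = 0.543). At day 70 a wide range replaced this pattern, with 1.84, 10.2 and 3.64 CPM on the standard diet and 26.6, 1.25 and 4.03 CPM on the GW3965 diet. The log2 fold change there was 1.03 ± 0.93 (edgeR, adjusted P = 0.568) and -0.92 without GW3965 replicate 1. *Apoc2*, the lipase activator, had log2 fold changes of 0.10, 0.43, 0.65 and 1.08 at days 0, 22, 43 and 70, with adjusted P of 0.257 or more (edgeR) and overlapping samples at every day.

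*Apob* and *Mttp*, the core of the triglyceride-rich particle, were not called for diet at any day. *Apob* had 4.89, 3.40 and 9.17 CPM on the standard diet at day 70 and 5.27, 41.7 and 5.37 CPM on the GW3965 diet. Its log2 fold change of 1.71 ± 0.66 (edgeR, adjusted P = 0.172) rested on GW3965 replicate 2, the sample without the stratified epithelium genes, and was 0.00 without it (edgeR, adjusted P = 1). *Mttp* was lower on the GW3965 diet at day 43 (-1.05 ± 0.47; edgeR, adjusted P = 0.55), where the standard sample of low RNA integrity had 10.4 CPM and the other 5 samples had 1.91 to 3.43 CPM, and without that sample the log2 fold change was -0.26. *Apoa4* ranged from 0 to 1.56 CPM in the 26 samples, and its highest value stood in standard diet day 0 replicate 2. Its log2 fold change of -3.12 ± 1.36 at day 0 (edgeR, adjusted P = 1) compared means of 0.446 CPM on the standard diet and 0.0449 CPM on the GW3965 diet, where 2 of the 4 samples were at 0. *Apoa1* did not pass the filter and its day 0 means were 0.236 CPM with the standard food and 0.0563 CPM with GW3965 (P = 0.657 by an exact permutation test). At this depth no diet difference was detectable in either gene.

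The second question was how the genes changed from day 0 over the course of AOM-DSS within a diet. The day 22, 43 and 70 comparisons of a diet share its day 0 samples, and day 0 and later samples stood in different cages. On the standard diet the quasi-likelihood test called 0 of the 9 genes at day 22 (7.73% of all genes tested were called). There, 2 of the 9 had an unadjusted P below 0.05 (20.9% of all genes), and DESeq2 called 1 (2030 genes in all). The quasi-likelihood test called 2 at day 70, both lower (33.2% of all genes, 15.1% lower), and the 9 genes had a median log2 fold change of -0.89 against 0.04 for all genes tested. DESeq2 called 3 there, adding *Apoa4*, among 6370 genes in all against 5672 with edgeR. On the GW3965 diet the quasi-likelihood test called 1 at day 22, which was higher (12.6% of all genes, 9.13% higher), and 0 at day 70 (21.8% of all genes). In the latter, 2 of the 9 had an unadjusted P below 0.05 (34.9% of all genes), and DESeq2 called 0 (4539 genes in all). From day 0 to day 43, edgeR and DESeq2 called 0 of the 9 on either diet, and DESeq2 called 201 and 575 genes in all on the standard and GW3965 diets. On the standard diet edgeR called 0% of all genes, and 3 of the 9 had an unadjusted P below 0.05 (8.02% of all genes). On the GW3965 diet it called 0.938% of all genes, and 2 of the 9 had an unadjusted P below 0.05 (13.6%). The ribosomal percentage of the day 43 samples hardly overlapped with that of the others, so the fit without it is given for that day.

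On the standard diet, edgeR called *Apob* and *Lpl* lower at day 70. *Apob* fell from 43.7, 35.5, 26.5 and 25.6 CPM at day 0 to 4.89, 3.40 and 9.17 CPM, with no overlap (19.3% of all genes tested were lower without overlap) and a log2 fold change of -2.51 ± 0.63 (SE; edgeR, adjusted P = 0.0049). *Lpl* fell from 23.2, 41.8, 15.9 and 8.57 CPM to 4.84, 10.7 and 5.58 CPM, where 1 sample of each day overlapped the other day (-1.68 ± 0.61; edgeR, adjusted P = 0.0414). With the GW3965 diet, *Apob* had a log2 fold change of -0.57 ± 0.61 and *Lpl* of 1.36 ± 0.61 over the same interval, with adjusted P of 0.542 and 0.113 (edgeR). Leaving out any of 4 libraries ended the *Lpl* call on the standard diet (edgeR, adjusted P between 0.0682 and 0.158), namely replicates 1 and 2 of day 0 and replicates 1 and 3 of day 70, and the log2 fold change lay between -2.10 and -1.19 over all libraries left out. The call was also lost without the day 43 samples (-1.66, adjusted P = 0.0612) and with the replicate block by title number (-1.50, adjusted P = 0.0756). *Apoa4* had means of 0.446 CPM at day 0 and 0.0141 CPM at day 70 (log2 fold change -4.42 ± 1.74; edgeR, adjusted P = 0.0565), and DESeq2 and the likelihood ratio test called it. Its day 0 mean rested on replicate 2 with 1.558 CPM (33 counts), where replicates 1, 3 and 4 had 0.0471, 0.128 and 0.0495 CPM. The day 70 samples had 0, 0 and 0.0423 CPM. Several marker lists had members called lower over this interval on the standard diet. These were 7 of 8 enteric glia, 7 of 10 adipocyte, 4 of 12 colonic epithelium, 3 of 12 macrophage, 3 of 10 fibroblast and 2 of 5 hepatocyte markers, while 4 of 10 skeletal muscle markers were called higher, as was 1 member each of the enteric glia, colonic epithelium, fibroblast and small intestinal lists. The enteric glia sum was 29.9 to 73.1 CPM at day 0 and 11.5 to 13.6 CPM at day 70, and the adipocyte sum 159 to 382 and 126 to 133 CPM. The colonic epithelium sum was 6518 to 11529 and 5843 to 13693 CPM, the fibroblast sum 2159 to 3772 and 1590 to 2955 CPM, and the hepatocyte sum 70.3 to 112.5 and 38.8 to 47.2 CPM. The macrophage sum was 524.0 to 808.6 and 277.4 to 688.3 CPM, and the skeletal muscle sum 36.2 to 95.4 and 10.9 to 691.7 CPM. Of the 8 hepatocyte markers, *Alb*, *Ahsg*, *Fgb*, *Serpina3k* and *Hpx* did not exceed 2.36 CPM in any sample. *Ttr*, *Tat* and *Cyp2e1* reached 71.3, 70.9 and 37.2 CPM. The list therefore does not show that hepatocytes were present. The part of any of these cell types in the *Apob*, *Lpl* and *Apoa4* values was not tested.

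The highest means of *Apoc2* stood at days 22 and 43 on both diets, and those of *Apoe* at the same days on the standard diet. *Apoc2* on the GW3965 diet had 7.37, 5.93, 6.27 and 2.44 CPM at day 0 and 21.4, 12.5 and 30.8 CPM at day 22, without overlap, as 25.2% of all genes tested were higher (log2 fold change 1.499 ± 0.47; edgeR, adjusted P = 0.0409). It reached 45.7, 67.4 and 11.1 CPM at day 43 and was back at 3.58, 5.38 and 4.42 CPM at day 70. Its standard diet means were 4.96, 14.3, 31.1 and 2.61 CPM in the order of the days. The day 22 call on the GW3965 diet was lost without the filter on low counts (edgeR, adjusted P = 0.0549), without the day 43 samples (0.0521), with only the day 0 samples of equal diet time (0.298) and without any one of 6 libraries, namely the 3 of day 22 and day 0 replicates 2, 3 and 4. *Apoe* on the standard diet had a mean of 445 ± 132 CPM (SD, n = 4) at day 0, 1091 ± 191 CPM (SD, n = 3) at day 22 and 1461 ± 979 CPM (SD, n = 3) at day 43, and the day 22 samples did not overlap with day 0, as in 15.9% of all genes tested (log2 fold change 1.32 ± 0.44; edgeR, adjusted P = 0.0726; DESeq2 called it). In the fit without the ribosomal percentage, which keeps the day 43 sample of low RNA integrity, 4 of the 9 genes were called from day 0 to day 43 on the standard diet, where 55.1% of all genes were called, and 3 on the GW3965 diet, where 45.3% were called. In that fit *Apoc2* had log2 fold changes of 2.65 ± 0.50 and 2.91 ± 0.50 on the standard and GW3965 diets, *Apoe* of 1.72 ± 0.42 and 1.51 ± 0.42, and *Apob* of -2.32 ± 0.61 and -1.87 ± 0.60 (edgeR, adjusted P between 0.000127 and 0.0151 for these 6), and *Apod* rose on the standard diet by 2.29 ± 0.57 (adjusted P = 0.00195). The macrophage sum of 12 markers was also highest at days 22 and 43 on both diets. Among these markers *Lyz2* reached 4704 CPM and the others at most 472 CPM. In the order of the days the sum was 524 to 809, 1185 to 2269, 2273 to 5929 and 277 to 688 CPM on the standard diet. On the GW3965 diet it was 467 to 664, 1975 to 2253, 2164 to 5694 and 642 to 1151 CPM. The *Apoe* mean on that diet was 953 CPM at day 22 and 1152 CPM at day 70. From day 0 to day 22, 10 of the 12 markers were higher and 2 lower on each diet. The part of these cells was not tested.

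The order of the 8 group means summarises each gene. For *Apod*, all 4 GW3965 groups ranked above all 4 standard groups, from 113.5 CPM at day 70 to 41.1 CPM at day 0 and then from 38.2 CPM on the standard diet at day 43 to 6.76 CPM at day 70. Of its neighbouring groups, only the GW3965 groups of days 43 and 22 had no overlapping samples. For *Apoe*, *Pltp*, *Lpl*, *Apob* and *Apoc2* the standard diet at day 70 was the lowest group, and the GW3965 group of day 70 had the highest mean for *Lpl* (58.1 CPM) and *Pltp* (70.1 CPM) but rank 3 for *Apoe* (1152 CPM), rank 4 for *Apob* (17.4 CPM) and rank 7 for *Apoc2* (4.46 CPM). Neighbouring groups overlapped in every case for *Apoe* and *Pltp*, and for *Lpl* the lowest group alone was apart from the next. Over the 26 samples the log2 CPM of *Apoe* had a Pearson's r of 0.799 with *Pltp*, 0.663 with *Apoc2* and 0.369 with *Apoc1*, and *Apod* had 0.775 with *Pltp* and 0.588 with *Lpl*, where the samples share groups and depth. *Apob* had coefficients between -0.448 and 0.175 with the other 8.

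Whether the diet effect differed between days was tested as the difference from the effect at day 0. The quasi-likelihood test called 0 of the 9 genes at each of days 22, 43 and 70, and 0.0234%, 0% and 0% of all genes. An unadjusted P below 0.05 was reached by 1 of the 9 for day 22 (6.24% of all genes), 0 for day 43 (4.37%) and 4 for day 70 (12.7%). DESeq2 called 0, 0 and 1 (102, 13 and 309 genes in all). At day 70 the difference was positive in 8 of the 9, with a median of 1.36 on the log2 scale against 0.04 for all genes tested. *Lpl* had a difference of 3.04 ± 0.87 (SE; edgeR, adjusted P = 0.19), which DESeq2 called, and *Apod* had 1.52 ± 0.85 (edgeR, adjusted P = 0.463). By the quasi-likelihood test, no diet effect was shown to differ between day 70 and day 0 in any of the genes.

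Other genes of the system were taken from fixed lists. Of 11 other apolipoproteins tested, 0 were called for diet at any day by edgeR, and 9 of 11 had positive log2 fold changes at day 70 (median 1.06). Of 11 genes of lipase regulation and plasma lipid remodelling and 11 of chylomicron assembly, edgeR called 0 for diet at any day, with medians of 0.11 and -0.04 at day 70. Of 12 lipoprotein receptor genes, 2 were called, both higher at day 70. *Lrp1*, a receptor for apolipoprotein E-rich remnants, had means of 145.6 CPM on the GW3965 diet and 54.2 CPM on the standard diet (log2 fold change 1.37 ± 0.30; edgeR, adjusted P = 0.0292). *Mylip*, the LXR-induced ligase that degrades the LDL receptor, had 94.1 and 27.3 CPM (1.70 ± 0.28; edgeR, adjusted P = 0.00857). For comparison, among 10 LXR targets outside these genes, 5 were called higher at each of days 0, 22 and 43 and 6 at day 70, with *Abca1*, *Abcg1*, *Srebf1* and *Abcg5* called at every day. *Abca1* had log2 fold changes of 2.23, 1.41, 1.79 and 2.67 at the 4 days, with standard errors of 0.24 to 0.29.

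Over time, 5 of the 11 other apolipoproteins were called higher from day 0 to day 22 on the standard diet (6.19% of all genes) and 6 on the GW3965 diet (9.13%). The medians of the log2 fold change were 1.41 and 1.74 against 0.00 and 0.02 for all genes tested. *Saa3*, an acute-phase apolipoprotein of high-density lipoprotein, rose from 1.70 to 123.9 CPM on the standard diet (log2 fold change 5.65 ± 0.96; edgeR, adjusted P = 0.00188) and from 1.12 to 82.4 CPM on the GW3965 diet (5.77 ± 0.96; edgeR, adjusted P = 0.000689). *Apol9a* and *Apol9b*, which share sequence and may share reads, rose on both diets, by 2.87 and 2.35 on the standard diet and 3.996 and 2.837 on the GW3965 diet on the log2 scale. *Clu*, which encodes apolipoprotein J, rose on the standard diet from 103.2 to 311.5 CPM (1.59 ± 0.38; edgeR, adjusted P = 0.014). At day 70, 3 of the 12 lipoprotein receptor genes were called higher and 3 lower on the standard diet (median 0.26 against 0.04 for all genes tested). Of all genes tested, 33.2% were called there, 15.1% lower. *Lrp8*, a receptor for apolipoprotein E, rose from 4.13 to 23.3 CPM (2.496 ± 0.46; edgeR, adjusted P = 0.0006), and *Cd36*, a fatty acid and lipoprotein scavenger receptor, fell from 39.9 to 9.06 CPM (-2.13 ± 0.74; edgeR, adjusted P = 0.0331). *Lrp1* and *Mylip* fell in that comparison as well (log2 fold changes -0.80 and -0.73; edgeR, adjusted P of 0.0289 and 0.03). Whether these changes differed between the diets was tested for each gene against day 0, and 0 genes of the 4 lists around the lipoproteins were called by edgeR.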

How the data were processed

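Bulk RNA-seq samples were grouped by the diet and day of their titles, and 1 day 0 sample with a conflicting diet label was placed by its title and left out in an alternative. Transcript levels were estimated by the authors with Kallisto against GRCm38 cDNA, and the deposited tables hold estimated counts (expected counts) and TPM per transcript. The Kallisto version and Ensembl release were not given in the sources used here. Of 119414 transcripts, 116728 were matched to genes of GENCODE M21, and the remainder held 0.615% to 0.999% of a sample's counts. Gene counts and gene TPM are sums over matched transcripts, with counts then rounded. The sample totals had a median of 20424701, a minimum of 18195345 and a maximum of 41522204.

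Genes were kept by filterByExpr (17063 genes) and normalized by TMM. Tests used edgeR 4.0.16 in R 4.3.3, with the quasi-likelihood test in a model of the 8 groups and the centred percentage of counts on 88 ribosomal protein genes, and Benjamini-Hochberg adjustment over all genes tested at 0.05. DESeq2 1.42.0, limma 3.58.1 (in support of edgeR), Python 3.11.15, pandas 2.3.3, numpy 2.4.6 and matplotlib 3.10.9 were also used. The scripts were tested on simulated data. Fold changes of low genes depend on the prior count, and log2 CPM for correlations used a prior count of 2. Exact permutation tests were two-sided, with a smallest P of 0.02857 for 4 samples against 4 and 0.1 for 3 against 3.

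The 10 genes and all lists were chosen with earlier results of these data known, and the list of 5 stratified epithelium genes was added after their values were seen. All 10 genes were named by rule, and of the pathway lists at most 5 called genes per list and comparison. Same-numbered samples within a day did not deviate together (mean correlation -0.066 over 13 pairs, 2 above 0.1), so the numbers were not taken as pairs. Alternatives were the fit without the ribosomal percentage or with the RNA integrity number, other scalings, tools and filters, the replicate block, subsets of samples and leaving out each sample.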

Additional observations from a re-analysis of the deposited data

Results flagged for a closer look

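In the day 0 groups of 4 samples, 20 combinations of gene and group were examined for a sample far from the others by Dixon's criterion, and 3 exceeded its critical value, where chance alone gives about 1 in 20. *Apoa1* had 0.8027 CPM in standard diet day 0 replicate 2, the highest of its group. *Apoa4* had 1.558 CPM in the same sample, also the highest of its group. *Apoe* had 481.3 CPM in GW3965 day 0 replicate 1, the lowest of its group. The causes were not tested.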

How the results depend on the processing

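Of 253 alternatives to 14 counts of called genes, 209 stayed within 1.5 times the reported count. Of 907 alternatives to 48 single-gene results, 829 kept the side of the threshold and, for log2 fold changes, the direction. A further 37 lost the call, 20 gained it and 21 changed sign. These results were log2 fold changes and the adjusted P of the joint diet test, which has no direction. Except where a cause follows from fewer samples, the causes were not tested. Without the ribosomal percentage, the counts from day 0 were 1 at day 22 and 4 at day 43 on the standard diet (1630 and 9394 genes in all) and 3 at day 43 on the GW3965 diet (7729 genes). With the RNA integrity number in its place they were 2 and 5 on the standard diet (2286 and 6691 genes in all) and 2, 6 and 1 at days 22, 43 and 70 on the GW3965 diet (4591, 7929 and 4689 genes). DESeq2 and the likelihood ratio test each called 1 gene for diet at day 0 (27 and 9 genes in all). From day 0 to day 22 on the standard diet each called 1 (2030 and 1742 genes). For the change of the diet effect at day 70 each called 1 (309 and 208 genes), and for diet at any day they called 5 and 4 (845 and 587 genes). The model with all interactions called 0 at any day (159 genes in all). The replicate block with pairs within a day gave 0 for diet at day 70 and 0 at any day (8 genes in all in each). The block by title number gave 1 from day 0 to day 70 on the standard diet (5075 genes in all). Only the samples of a day gave 1 for diet at day 22 and 0 at day 70 (77 and 0 genes in all). The count from day 0 to day 22 on the GW3965 diet was 0 without the filter on low counts (1698 genes in all) and with day 0 samples of as many days of diet (393 genes). It was also 0 without the day 43 samples (1954 genes), an alternative chosen after seeing the data. Without GW3965 day 70 replicates 1 and 2, also chosen after seeing the data, 0 genes were called for diet at day 70, and the log2 fold changes were -0.053 for *Apob*, -0.495 for *Mttp* and -0.34 for *Apoc1*.

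Leaving out 1 library at a time, the counts ranged from 0 to 5 for diet at day 70, 1 to 2 at any day, 1 to 3 from day 0 to day 70 on the standard diet, 0 to 1 from day 0 to day 22 and 0 to 2 from day 0 to day 70 on the GW3965 diet, and 0 to 1 for the change of the diet effect at day 70. The day 70 diet count, 3 among 312 genes in all, was 1 without GW3965 replicate 1 (107 genes), 5 without GW3965 replicate 3 (1464 genes), and 0 without standard replicate 1 or 3 (6 and 7 genes). At any day it was 2 without standard day 43 replicate 1 or GW3965 day 70 replicate 3 (98 and 231 genes). The log2 fold changes for diet that changed sign ranged from -0.26 to 0.025 for *Mttp*, -0.10 to 0.42 for *Apoc2* and -0.19 to 0.58 for *Lpl* at day 0. At day 22 they ranged from -0.95 to 0.33 for *Apob*, -0.33 to 0.001 for *Apoe* and -0.052 to 0.19 for *Lpl*. At day 43 they ranged from -0.048 to 0.51 for *Apob*, -1.19 to 0.088 for *Apoa4*, -0.073 to 1.14 for *Apoe*, -0.54 to 0.35 for *Lpl* and -0.21 to 1.27 for *Pltp*, and at day 70 from -0.92 to 1.96 for *Apoc1*. Scaling by library size alone moved 4 of 80 group means by over 1 SD. With 45 counts over all samples, *Apoa1* was too low for the fit.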
